A study of Mus musculus with 70 samples.

Results

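The immunity-related GTPases (IRGs) described here are 6 mouse genes, Irgm1, Irgm2, Igtp, Iigp1, Tgtp1 and Tgtp2, picked by name out of the 24435 genes of the deposited count table. All 6 were in the table and all passed the filter on low counts. Their levels were measured by RNA sequencing in 70 libraries of sorted mouse spleen cells: monocytes, the dendritic cells that derive from them (moDC), plasmacytoid dendritic cells (pDC), and both kinds of conventional dendritic cell, type 1 (cDC1) and type 2 (cDC2). All mice were 8 to 10 weeks old and had received an intraperitoneal injection of PBS 5 h before the spleen was taken, so no group was stimulated with interferon.

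The libraries form 18 groups of cell type and strain. NOD mice, which develop autoimmune diabetes spontaneously, were compared with B6g7 mice, the label's C57BL/6.g7, which are C57BL/6 animals with the NOD class II haplotype. Each strain had 6 libraries of cDC1, 6 of cDC2, 3 of monocytes and 3 of pDC, while moDC had 5 from NOD and 6 from B6g7. A second set came from mice lacking Rag1, which have no mature T or B cells: NOD Rag1-/- against B6 Rag1-/-, with 3 and 3 libraries of cDC1, cDC2 and pDC, and 3 and 2 of moDC. In that set the control strain is B6 and not B6g7, and the sequencing run and the number of sorted cells differ too. A difference between the sets could go with any of these, which cannot be told apart. The sort markers in the labels were CD8a for cDC1, 33D1 for cDC2, class II for moDC and Ly6C for monocytes. The labels do not say that the libraries of a group came from separate animals, so the p-values measure the spread between these libraries, which may be in part technical.

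IRGs are large GTPases that mouse cells make in response to interferon-gamma and, for several members, to type I interferon. They are known for defence against microbes that live in vacuoles, such as Toxoplasma gondii and Chlamydia trachomatis. The effectors Iigp1 (Irga6), Tgtp1 and Tgtp2 (both Irgb6) load onto the vacuole membrane and break it open, while the regulators Irgm1, Irgm2 and Igtp (Irgm3) sit on the cell's own membranes and keep the effectors inactive there. Where the effectors load is set with the help of the ATG8 conjugation proteins of autophagy.

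Regulators and effectors differ at a codon in the stretch that binds the phosphates of GTP, which carries a methionine in regulators and a lysine in effectors. That stretch is shown for the members whose sequence is printed, from the GRCm38 transcripts with the differing codon in capitals. In Irgm1 it lies at chr11:48866761-48866784 on the minus strand (exon 3 of 3), in Irgm2 at chr11:58219695-58219718 on the plus strand (exon 2 of 2), and in Igtp at chr11:58206275-58206298 on the plus strand (exon 3 of 3). In Tgtp1 it lies at chr11:48987667-48987690 and in Tgtp2 at chr11:49059534-49059557, both on the minus strand in exon 2 of 2.
Irgm1: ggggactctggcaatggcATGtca
Irgm2: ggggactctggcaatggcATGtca
Igtp: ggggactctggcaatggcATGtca
Tgtp1: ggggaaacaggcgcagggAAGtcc
Tgtp2: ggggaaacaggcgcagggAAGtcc
The 24 bases are the same in the 3 regulators and the same in both Tgtp genes.

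Irgm1 (chr11:48865245-48871420), Tgtp1 (chr11:48985329-48992246) and Tgtp2 (chr11:49057196-49064212) lie close together on the minus strand of chromosome 11 in GRCm38.p6. Igtp (chr11:58199556-58207592) and Irgm2 (chr11:58214977-58222783) are neighbours on its plus strand, and the sixth member lies on another chromosome. The RefSeq promoter windows of GRCm38.p6, 250 bases before to 50 after the start, were matched for 5 of the 6 members and searched on both strands for TTCNNNGAA, the letters of an interferon-gamma-activated site, and for GAAA, any 2 bases and GAAA again, the core of an interferon-stimulated response element. The matches are shown because the known inducers of the family act through these elements. Capitals mark them, read along the gene's strand, at chr11:48871429-48871462 for Irgm1, chr11:58214890-58214934 for Irgm2, chr11:58199499-58199543 for Igtp, chr11:48992302-48992346 for Tgtp1 and chr11:49064261-49064305 for Tgtp2.
Irgm1: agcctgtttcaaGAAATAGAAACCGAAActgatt
Irgm2: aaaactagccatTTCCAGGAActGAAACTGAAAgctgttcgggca
Igtp: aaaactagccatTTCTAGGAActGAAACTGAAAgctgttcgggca
Tgtp1: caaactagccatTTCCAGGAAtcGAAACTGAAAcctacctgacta
Tgtp2: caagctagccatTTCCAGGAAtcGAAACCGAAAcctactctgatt
In 4 members TTCNNNGAA stands 2 bases before the response element core, which begins 64 (Irgm2), 34 (Igtp), 77 (Tgtp1) and 70 (Tgtp2) bases before the start. Irgm1 holds overlapping matches of the core, the first 30 bases before its start, and TTCNNNGAA is not in its window. Of 32544 mouse promoter windows of the same length, 8.33% hold TTCNNNGAA, 3.45% hold the core and 0.45% hold both.

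The likeness of the genes bears on how their reads could be assigned. The coding sequences of Tgtp1 and Tgtp2 are 99.7% identical, their transcripts share a run of 1040 bases, and 71.3% of the 150-base windows of Tgtp1 occur in Tgtp2. The counts carry the trace of that: the values of Tgtp1 and of Tgtp2 were each whole numbers, within 0.01 of a count, in 1 of 70 libraries, but their sum was whole in 38. Irgm2 and Igtp are 69.5% identical with a longest shared run of 141 bases and no shared 150-base window. The Irgm2 value was whole in 0 libraries, that of Igtp in 1 and their sum in 15. Irgm1 was whole in 39 and Iigp1 in 57. The split within Tgtp1 and Tgtp2, and within Irgm2 and Igtp, is therefore an estimate of the authors' software. The sums are given beside the split values for the strain comparisons with Rag1 and, for the Tgtp pair, between cell types. Between cell types the sum of Irgm2 and Igtp is given as means for pDC, cDC1 and monocytes with Rag1 and was not tested.

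The 47 libraries with Rag1 held 12806956 to 19743162 expected counts from 537 to 5000 sorted cells, and the 23 Rag1-/- libraries 14671299 to 20642503 from 6575 to 14529 cells. RNA integrity numbers were 3.9 to 10, and 6.8 and 3.9 in cDC2 B6g7 replicates 5 and 6. In the set with Rag1, marker lists of 3 of the sorts summed highest in the sort of that name: 10 cDC1 markers summed to 7740 to 9971 CPM, counts per 1000000 counts of the scaled library, in cDC1 and at most 4317 elsewhere, 10 pDC markers to 18190 to 26650 in pDC and at most 641 elsewhere, and 11 monocyte and macrophage markers to 53730 to 71380 in monocytes and 6503 to 22440 in moDC. The 10 cDC2 markers did not set the cDC2 sort apart. They summed to 1269 to 1928 CPM in cDC2, above cDC1 at 316.8 to 876.8, but lower than the 4994 to 8653 in pDC and 2483 to 2678 in monocytes, and overlapping the 1646 to 2835 in moDC. Every marker of its own list had a count in each of these sorts. In the Rag1-/- set the cDC1 markers summed to 10210 to 13120 CPM in cDC1 and at most 5086 elsewhere. The pDC markers summed to 8730 to 42120 in pDC and at most 237.5 elsewhere. The cDC2 markers again did not set cDC2 apart (1804 to 2918 CPM, against 2363 to 4371 in moDC and 2536 to 5866 in pDC). In bulk libraries fewer cells that carry a transcript and less transcript per cell cannot be told apart. Ifng, which encodes interferon-gamma, was at 0 to 7.65 CPM over the 70 libraries, and at most 2.87 with Rag1. In B6 Rag1-/- it was at 1.25 to 4.72 CPM in cDC2, 3.04 to 5.24 in moDC and 1.44 to 7.65 in pDC. In NOD Rag1-/- it was at most 0.607, 0.633 and 1.43 there. In cDC1 it was at 0 to 1.43 CPM in B6 Rag1-/- and 0 in NOD Rag1-/-. The part of Ifng in the IRG levels was not tested.

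Irgm1 had the smallest median coefficient of variation within groups of the 6 members (10.6% with Rag1). In the mice with Rag1 its lowest means were in conventional dendritic cells, and its highest were in monocytes in B6g7 and in pDC (109.2 CPM) and monocytes (102.1) in NOD. In B6g7 libraries it was at 97.38, 84.54, 108.9, 68.89, 85.65 and 61.91 CPM in cDC1, at 119.8, 135.5 and 127.8 in pDC and at 152.6, 149.6 and 194.5 in monocytes. In NOD libraries the values were 60.26 to 71.24 CPM in cDC1, 80.89 to 134.0 in pDC and 93.45 to 113.4 in monocytes. In B6g7 the monocyte level was higher than in each of the other 4 cell types, by 0.55 (SE 0.16) on the log2 scale against pDC (adjusted p = 0.00338) and by 1.13 (SE 0.13) against cDC1 (adjusted p = 2.12e-10, edgeR quasi-likelihood test with Benjamini-Hochberg adjustment over all genes). In NOD, monocytes and pDC did not differ beyond their spread (0.04, SE 0.16, adjusted p = 0.881). cDC1 and cDC2, the lowest pair, did not differ beyond it in either strain (adjusted p = 0.386 in B6g7 and 0.934 in NOD).

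Irgm2 had the widest range of the regulators across cell types. In B6g7 its mean was 64.53 ± 14.46 CPM (SD, n = 3) in monocytes, 30.52 ± 10.97 (n = 6) in moDC, 26.67 ± 15.42 (n = 6) in cDC2, 15.42 ± 4.923 (n = 6) in cDC1 and 4.855 ± 0.5858 (n = 3) in pDC. pDC stood below every other cell type, by 2.44 (SE 0.32) on the log2 scale against monocytes in B6g7 (adjusted p = 8.03e-09) and by 2.90 (SE 0.35) in NOD (adjusted p = 9.83e-10). In B6g7 the difference between pDC and cDC1 rests on the split. The sum of Irgm2 and Igtp was 43.83 ± 5.784 CPM (n = 3) in pDC and 44.36 ± 6.433 (n = 6) in cDC1. In NOD the sums were 32.74 ± 5.407 and 48.32 ± 9.062 CPM. In monocytes they were 128 ± 21.76 in B6g7 and 87.21 ± 15.89 in NOD. The Irgm2 share averaged 11.2% in pDC and 34.9% in cDC1 of B6g7, and 5.09% and 20.5% in NOD. These sums were not tested. Of the neighbours in the Irgm2 order, monocytes and moDC (adjusted p = 0.0806 in B6g7 and 0.12 in NOD) and moDC and cDC2 (0.165 and 0.17) did not differ beyond their spread with date in the model. With replicate number as a block instead of date, monocytes were above moDC in both strains (log2 1.75, adjusted p = 8.14e-06 in B6g7, and 1.42, 0.000397 in NOD) and moDC above cDC2 in NOD (0.75, 0.0348), although the numbers do not pair monocytes with other cells. Nor do they pair moDC with cDC2 in NOD throughout. Replicate 3 of NOD was sorted on 01.05.2016 for moDC and on 10.26.2015 for cDC2. These block calls therefore cannot be told apart from the sort date. All monocyte libraries were sorted on 01.05.2016, when Irgm2 levels of the other cells were higher too: on that date alone the B6g7 means were 38.78 ± 7.529 CPM in moDC, 40.22 ± 3.484 in cDC2 and 19.68 ± 2.361 in cDC1 (n = 3 each). Igtp kept a narrower range, from 28.95 ± 6.967 CPM (n = 6) in cDC1 to 63.48 ± 7.421 (n = 3) in monocytes of B6g7. Its cDC1 level lay below each of the other 4 cell types in B6g7, while in NOD cDC1 and cDC2 were at 38.26 ± 8.671 and 37.28 ± 2.655 CPM (n = 6 each, adjusted p = 0.954).

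Iigp1, a vacuole-loading effector on chromosome 18, was highest in pDC and cDC1 in the mice with Rag1. In B6g7 it was at 20.48, 35.05 and 32.21 CPM in pDC and at 18.14, 4.083, 11.78, 15.75, 19.26 and 10.23 in cDC1. In cDC2, moDC and monocytes of both strains no library was above 4.517 CPM, and 2 libraries were at 0. pDC and cDC1 did not differ beyond their spread in B6g7 (1.01, SE 0.63, adjusted p = 0.169) or NOD (adjusted p = 0.285), and both were above cDC2, moDC and monocytes in each strain. In the Rag1-/- mice 1 pair of cell types was called for Iigp1 in B6 Rag1-/-, pDC above cDC1, and 0 in NOD Rag1-/-. In B6 Rag1-/- the means were 64.34 CPM in pDC, 41.88 in moDC, 24.49 in cDC2 and 7.466 in cDC1, and in NOD Rag1-/- 18.22 in moDC, 16.18 in pDC, 7.109 in cDC1 and 5.084 in cDC2. With replicate number as a block 4 pairs were called in NOD Rag1-/-, moDC above cDC1 (log2 1.41, adjusted p = 0.0245) and cDC2 (1.98, 0.00488), and pDC above cDC1 (1.73, 0.00455) and cDC2 (2.30, 0.000756). The block is not a shared sort date for pDC. Replicates 1 and 3 of NOD Rag1-/- pDC were sorted on 06.15.2015 and 05.15.2015. Replicates 1 and 3 of cDC1 and cDC2 were sorted on 11.14.2014 and 04.03.2015. Iigp1 values of the Rag1-/- libraries were far apart, at 11.92 and 71.85 CPM in moDC B6 Rag1-/- and 6.464 to 36.42 in moDC NOD Rag1-/-. Of its 2 transcripts NM_021792 took 97.4% of the count in cDC1 B6g7 and 100% in pDC B6g7.

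In the mice with Rag1, Tgtp1 had its highest means in cDC1 and its lowest in monocytes and pDC. In B6g7 its mean was 62.52 ± 24.5 CPM in cDC1, 21.12 ± 11.97 in moDC, 27 ± 8.689 in cDC2 (n = 6 each), 2.615 ± 0.3183 in monocytes and 3.064 ± 0.07242 in pDC (n = 3 each). The cDC1 level was 4.52 (SE 0.45) above pDC on the log2 scale in B6g7 (adjusted p = 2.12e-11) and 6.02 (SE 0.51) above it in NOD (adjusted p = 1.84e-13). These values rest on the split: for the sum of Tgtp1 and Tgtp2, pDC against cDC1 was -1.231 (SE 0.193) in B6g7 and -2.455 (SE 0.21) in NOD. In the Rag1-/- mice the Tgtp1 means were 86.47 CPM in moDC, 44.65 in cDC2, 25.71 in cDC1 and 14.68 in pDC of B6 Rag1-/-, and 64.1 in cDC2, 50.72 in cDC1, 14.09 in moDC and 2.942 in pDC of NOD Rag1-/-. Tgtp2 followed another order, with means in B6g7 of 146.4 ± 41.16 CPM in moDC, 120.8 ± 23.01 in cDC2, 89.1 ± 23.08 in cDC1 (n = 6 each), 68.45 ± 6.12 in pDC and 64.17 ± 24.76 in monocytes (n = 3 each). moDC and cDC2 did not differ beyond their spread (adjusted p = 0.125 in B6g7 and 0.531 in NOD), nor did monocytes and pDC (0.131 and 0.158). With the pair summed, 6 of 10 pairs of cell types were called in B6g7, where Tgtp1 alone had 8 and Tgtp2 alone 7, and 7 of 10 in NOD, where they had 9 and 8. In B6g7 cDC2 was below cDC1 for Tgtp1 (log2 -1.17, adjusted p = 0.000436) and above it for Tgtp2 (0.49, 0.0022), while the sums were 147.8 ± 30.43 and 151.6 ± 45.3 CPM (n = 6 each, log2 0.02, adjusted p = 0.941). Because reads can be exchanged between the pair, the share of Tgtp1 in their sum is part of the estimate: it was 40.3% on average in cDC1 B6g7, 56.6% in cDC1 NOD, at most 31.7% in the cDC1 Rag1-/- libraries, and 0% to 26.6% in the libraries of the other cell types.

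**Figure D1:**
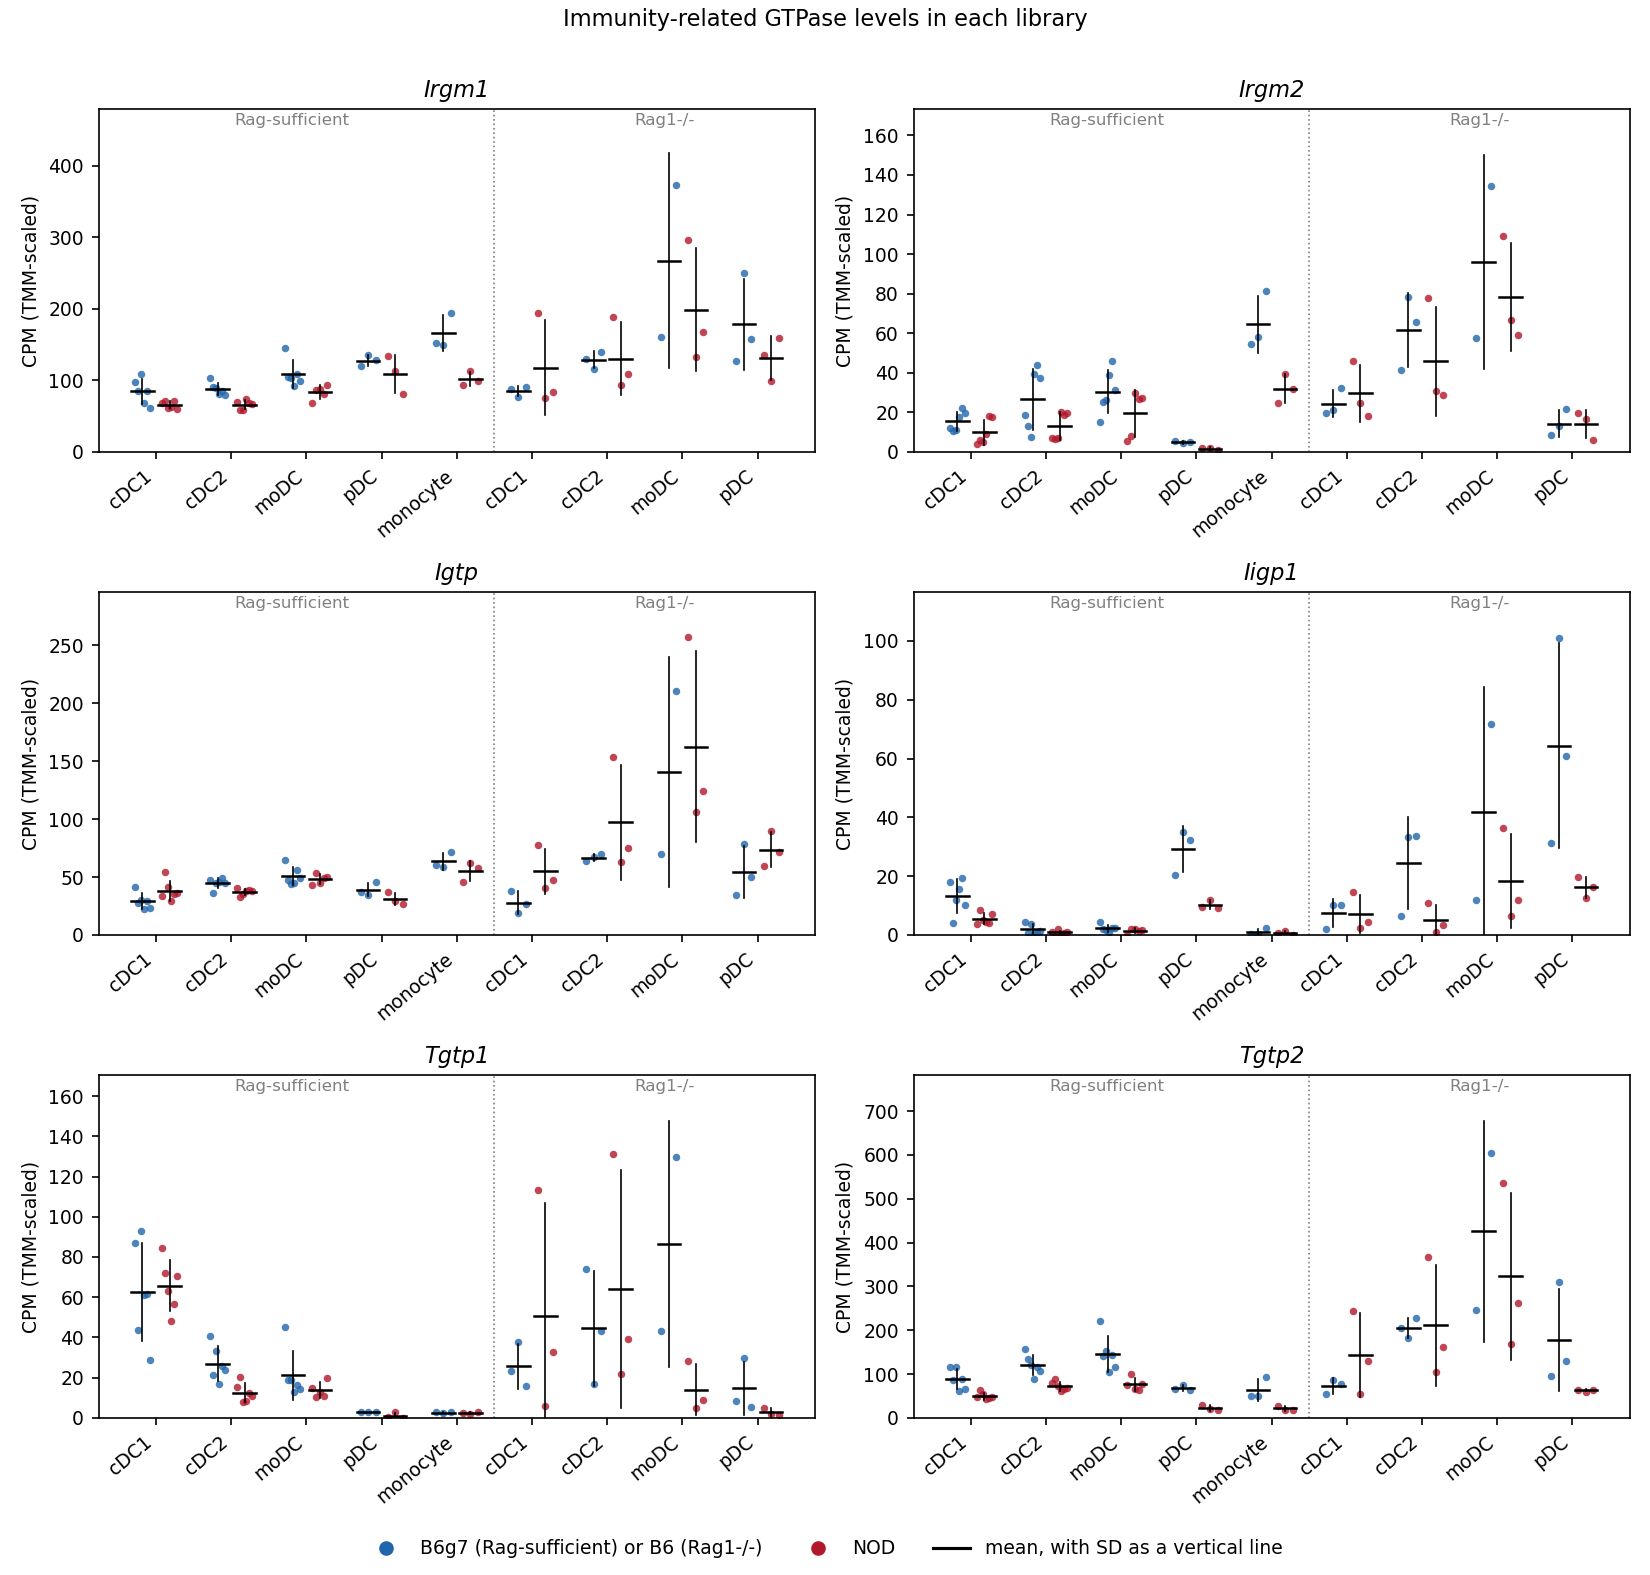
The 6 members in every library, in CPM, by cell type and strain, 1 panel a gene; points are libraries, horizontal lines group means and vertical lines SD. In the mice with Rag1, Irgm2 is lowest in pDC, Iigp1 is near 0 outside pDC and cDC1, and Tgtp1 is highest in cDC1; in the Rag1-/- mice Iigp1 and Tgtp1 also reach high values in moDC or cDC2.

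Compared between genes as mean CPM per kilobase of transcript, Irgm1 was first or second of the members in all 10 groups with Rag1, and Tgtp2 in 6 of them. In moDC of B6g7 Tgtp2 stood at 52.1 ± 14.6 and Irgm1 at 48.2 ± 8.41 CPM per kb (n = 6), against 25.3 ± 3.86 for Igtp, 8.82 ± 3.17 for Irgm2, 7.48 ± 4.24 for Tgtp1 and 0.724 ± 0.394 for Iigp1. In NOD monocytes the order was Irgm1 (45.2 ± 4.54, n = 3), Igtp (27.3 ± 4.25), Irgm2 (9.25 ± 2.14) and Tgtp2 (7.71 ± 2.01). Tgtp2 also stood below Igtp in monocytes of B6g7 (22.8 ± 8.81 against 31.4 ± 3.67) and pDC of NOD (8.05 ± 2.38 against 15.4 ± 2.51), and in cDC1 of NOD Tgtp1 was at 23.3 ± 4.53, Igtp at 18.9 ± 4.29 and Tgtp2 at 17.8 ± 2.84. None of these differences between genes was tested. Over the pairs of cell types, 45 of 60 member tests were called in B6g7, where 51.5% of all tests over all genes were called, and 44 of 60 in NOD against 51.5%. pDC were sorted on a date of their own, so date and cell type cannot be told apart there.

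**Figure D2:**
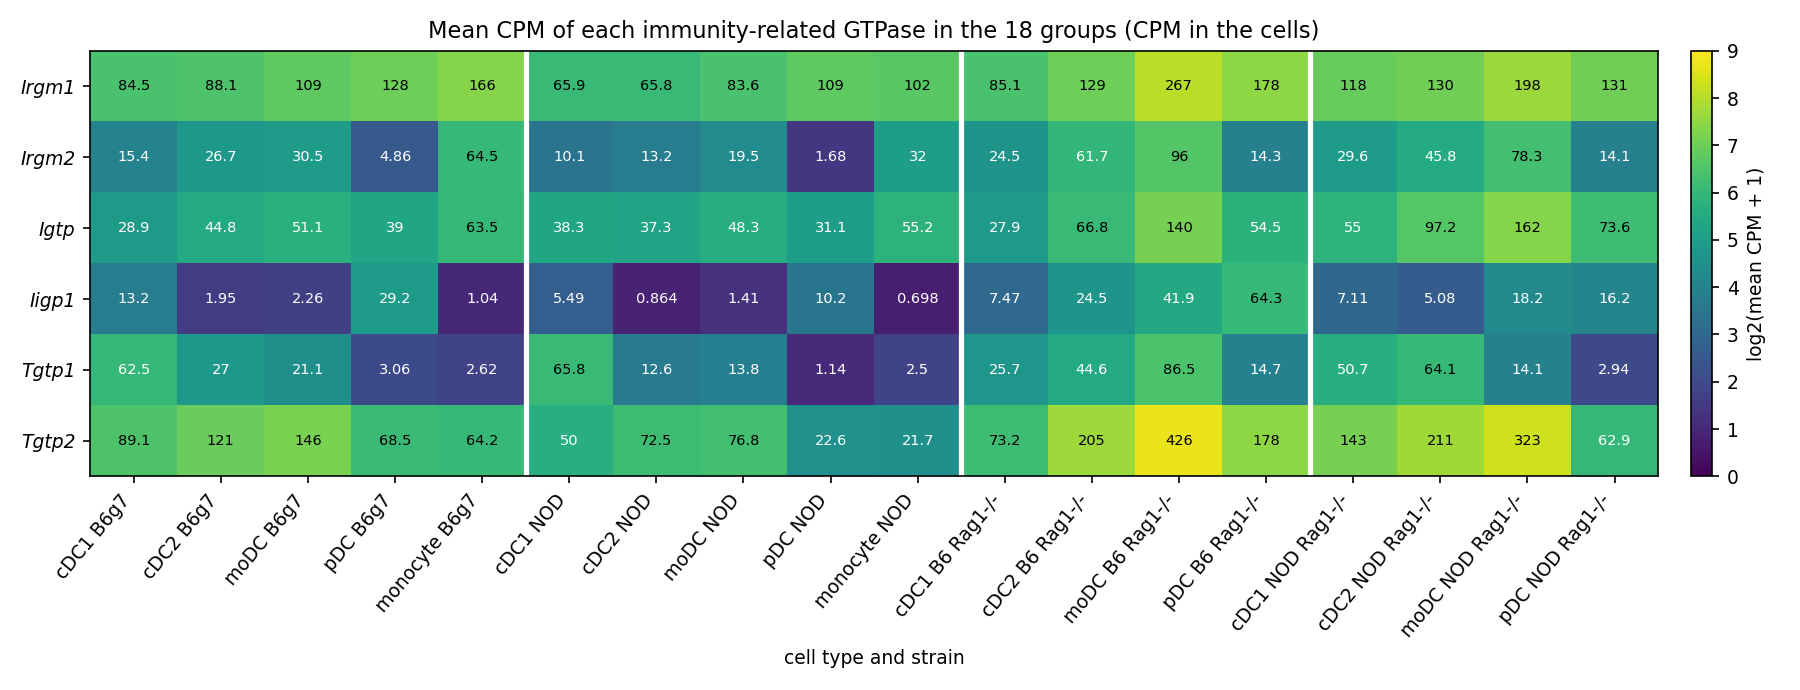
Mean CPM of each member (rows) in the 18 groups (columns), written in the cells and coloured by log2(mean CPM + 1). The groups with Rag1 show Iigp1 highest in pDC and Tgtp1 highest in cDC1, and the Rag1-/- groups show moDC highest for Irgm1, Irgm2, Igtp and Tgtp2 in both strains.

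Between the strains with Rag1, Tgtp2 was lower in NOD in all 5 cell types, and it was the member with the clearest difference. In cDC2 the NOD libraries were at 79.85, 88.98, 71.94, 61.76, 65.14 and 67.31 CPM and the B6g7 libraries at 157, 133.5, 121.9, 89.85, 115.4 and 107.1. Every NOD library was below every B6g7 library there, and the groups were likewise apart in moDC, pDC and monocytes but overlapped in cDC1. In pDC NOD was at 30.04, 20.66 and 17.12 CPM against 65.18, 75.51 and 64.66, and in monocytes at 28.19, 18.28 and 18.51 against 49, 50.76 and 92.74.

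On the log2 scale the Tgtp2 difference was -0.78 (SE 0.14, adjusted p = 3.8e-05) in cDC1, -0.73 (SE 0.14, 8.44e-05) in cDC2 and -0.87 (SE 0.15, 1.24e-05) in moDC, and larger at -1.57 (SE 0.21, 1.87e-07) in pDC and -1.58 (SE 0.20, 1.2e-07) in monocytes, by edgeR's quasi-likelihood test with Benjamini-Hochberg adjustment. B6g7 was thus 2.96-fold above NOD in pDC and 1.72-fold above it in cDC1, and the 5 differences were not equal (F test over cell types, adjusted p = 0.00689). With Tgtp1 and Tgtp2 summed the difference held in cDC2, moDC, pDC and monocytes (-0.79, -0.81, -1.56 and -1.48), and in cDC1 it was -0.34 and no longer called (adjusted p = 0.112). The authors' deposited table, from their own test per transcript, also has Tgtp2 lower in NOD in the 5 cell types, with adjusted p from 0.00085 in moDC to 0.0463 in cDC1. The authors' deposited table also passes Irgm2 in cDC2, moDC and monocytes (adjusted p of 0.0138 or less) and Irgm1 in monocytes (0.0407). It does not pass other calls made here: Irgm2 in cDC1 (0.236) and pDC (0.48), Irgm1 in cDC1, cDC2 and moDC (0.478, 0.29 and 0.201), Tgtp1 in cDC2 (0.217) and Igtp in cDC1 (0.311), in the authors' deposited table.

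Tgtp1 differed between the strains in cDC2, at 8.012 to 20.29 CPM in NOD and 16.93 to 40.92 in B6g7 (log2 -1.09, SE 0.29, adjusted p = 0.00416), with ranges that overlapped. On the date 10.26.2015 alone that call was lost (log2 -1.11, adjusted p = 0.12). In cDC1 its means were 65.82 ± 12.78 and 62.52 ± 24.5 CPM (n = 6 each, log2 0.13, 95% interval -0.41 to 0.66, adjusted p = 0.806). In pDC it was at 0.6677, 2.745 and 0 CPM in NOD and 3.1, 3.112 and 2.981 in B6g7, every NOD library lower, and missed the threshold (log2 -1.37, adjusted p = 0.13). It passed without pDC NOD replicate 2 (log2 -3.09, adjusted p = 0.00437), with DESeq2 (-1.40, 0.0187) and with limma (-2.24, 0.0034). Iigp1 passed in 0 cell types. Its largest differences were in pDC, at 9.347, 11.97 and 9.331 CPM in NOD against 20.48, 35.05 and 32.21 (log2 -1.49, 95% interval -2.85 to -0.12, adjusted p = 0.178), and in cDC1 (log2 -1.23, adjusted p = 0.0782). Fitted on the cell type alone, where the spread is not shared with cell types in which Iigp1 is near 0, both passed, with adjusted p = 9.03e-05 in pDC and 0.00752 in cDC1. The cDC1 difference also passed on the date 01.05.2016 alone (log2 -1.52, adjusted p = 0.00689).

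Irgm2 was lower in NOD in all 5 cell types. In cDC2 its NOD libraries were at 7.093, 6.457, 7.031, 20.32, 18.79 and 19.76 CPM and its B6g7 libraries at 18.78, 13.1, 7.493, 39.22, 44.09 and 37.34. The first 3 libraries of each strain are those sorted on 10.26.2015 and the last 3 those of 01.05.2016, and within each date every NOD library was below every B6g7 library. The log2 difference with date in the model was smallest in cDC1 at -0.69 (SE 0.20, adjusted p = 0.0111). It was -0.99 (SE 0.20, 0.000168) in cDC2, -0.96 (SE 0.21, 0.00051) in moDC, -1.02 (SE 0.27, 0.006) in monocytes and -1.49 (SE 0.35, 0.00227) in pDC.

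In pDC Irgm2 stood at 1.855, 2.211 and 0.9736 CPM in NOD and 5.466, 4.298 and 4.802 in B6g7, and in monocytes at 24.63, 39.43 and 31.88 against 54.53, 57.95 and 81.11, with no overlap in either. The monocyte call was lost without B6g7 replicate 3 (adjusted p = 0.0546) or NOD replicate 1 (0.0575). On the date 01.05.2016 alone the cDC1 and moDC differences were -0.40 (adjusted p = 0.163) and -0.49 (0.0519). With no term for date the Irgm2 call was lost in all 5 cell types, with adjusted p from 0.131 to 0.592, while the log2 difference was -1.49 in pDC, -1.02 in both monocytes and cDC2, -0.65 in moDC and -0.58 in cDC1.

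Irgm1 was lower in NOD in 4 of the 5 cell types by smaller factors. B6g7 was 1.63-fold above NOD in monocytes (log2 -0.71, SE 0.15, adjusted p = 0.000527), 1.33-fold in cDC2 (log2 -0.42, SE 0.11, adjusted p = 0.00294), 1.28-fold in moDC (log2 -0.36, SE 0.11, adjusted p = 0.0122) and 1.24-fold in cDC1 (log2 -0.31, SE 0.11, adjusted p = 0.0319). NOD and B6g7 libraries did not overlap in monocytes and cDC2: cDC2 held 58.21 to 73.41 CPM in NOD and 79.62 to 103.0 in B6g7. In cDC1 the call was lost with replicate number as a block (log2 -0.30, adjusted p = 0.0907) and without any 1 of 7 of its 12 libraries (NOD replicate 1, 2, 3 or 6, or B6g7 replicate 1, 3 or 5; adjusted p up to 0.109). In moDC it was lost without NOD replicate 1 (adjusted p = 0.0865). On the date 01.05.2016 alone the calls in cDC1 (log2 -0.16, adjusted p = 0.339), cDC2 (-0.25, 0.111) and moDC (-0.21, 0.138) were all lost, with smaller differences. In pDC the difference was -0.19 with a 95% interval of -0.49 to 0.10.

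Igtp was the exception among the regulators, being higher in NOD in cDC1. Its cDC1 libraries were at 33.93, 54.03, 41.2, 28.95, 35.31 and 36.14 CPM in NOD and 41.62, 27.65, 30, 22.46, 29.1 and 22.85 in B6g7, ranges that overlapped (log2 0.44, SE 0.11, adjusted p = 0.00413). In the other 4 cell types it lay between -0.30 and -0.07 with adjusted p of 0.0948 or more. Fitted on cDC2 alone it was lower in NOD there (log2 -0.27, adjusted p = 0.0316), and on the date 10.26.2015 alone the cDC1 call was lost (0.43, 0.176). The strain difference varied between cell types (F test, adjusted p = 0.00437). Irgm2 and Igtp moved apart in cDC1, and their sum did not pass there (log2 0.15, adjusted p = 0.379). Opposite differences offset each other in a sum, so it cannot decide either call. Summed, the pair was lower in NOD in cDC2 (log2 -0.48, adjusted p = 0.00107), moDC (-0.30, 0.046) and monocytes (-0.56, 0.00908), and not called in pDC (-0.39, 0.115). The share of Irgm2 in the sum was 20.5% on average in cDC1 NOD and 34.9% in cDC1 B6g7.

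Called members numbered 4 of 6 in cDC1, 3 lower and 1 higher in NOD, where 20.4% of all genes tested were called, 8.94% lower and 11.5% higher. In cDC2 4 members were lower, where 22% of all genes were called and 10.2% were lower, and in moDC 3 were lower, where 30.4% were called and 14.3% lower. In pDC 2 members were lower against 12.6% called and 7.40% lower, and in monocytes 3 against 15.3% called and 7.52% lower. In the same order the median member difference was -0.50, -0.86, -0.56, -1.43 and -0.64 on the log2 scale, where the median over all genes was 0.02 or less. Strain effects that differed between cell types were called for 2 of the 6 members, Igtp and Tgtp2, and for 24.3% of all genes.

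**Figure D3:**
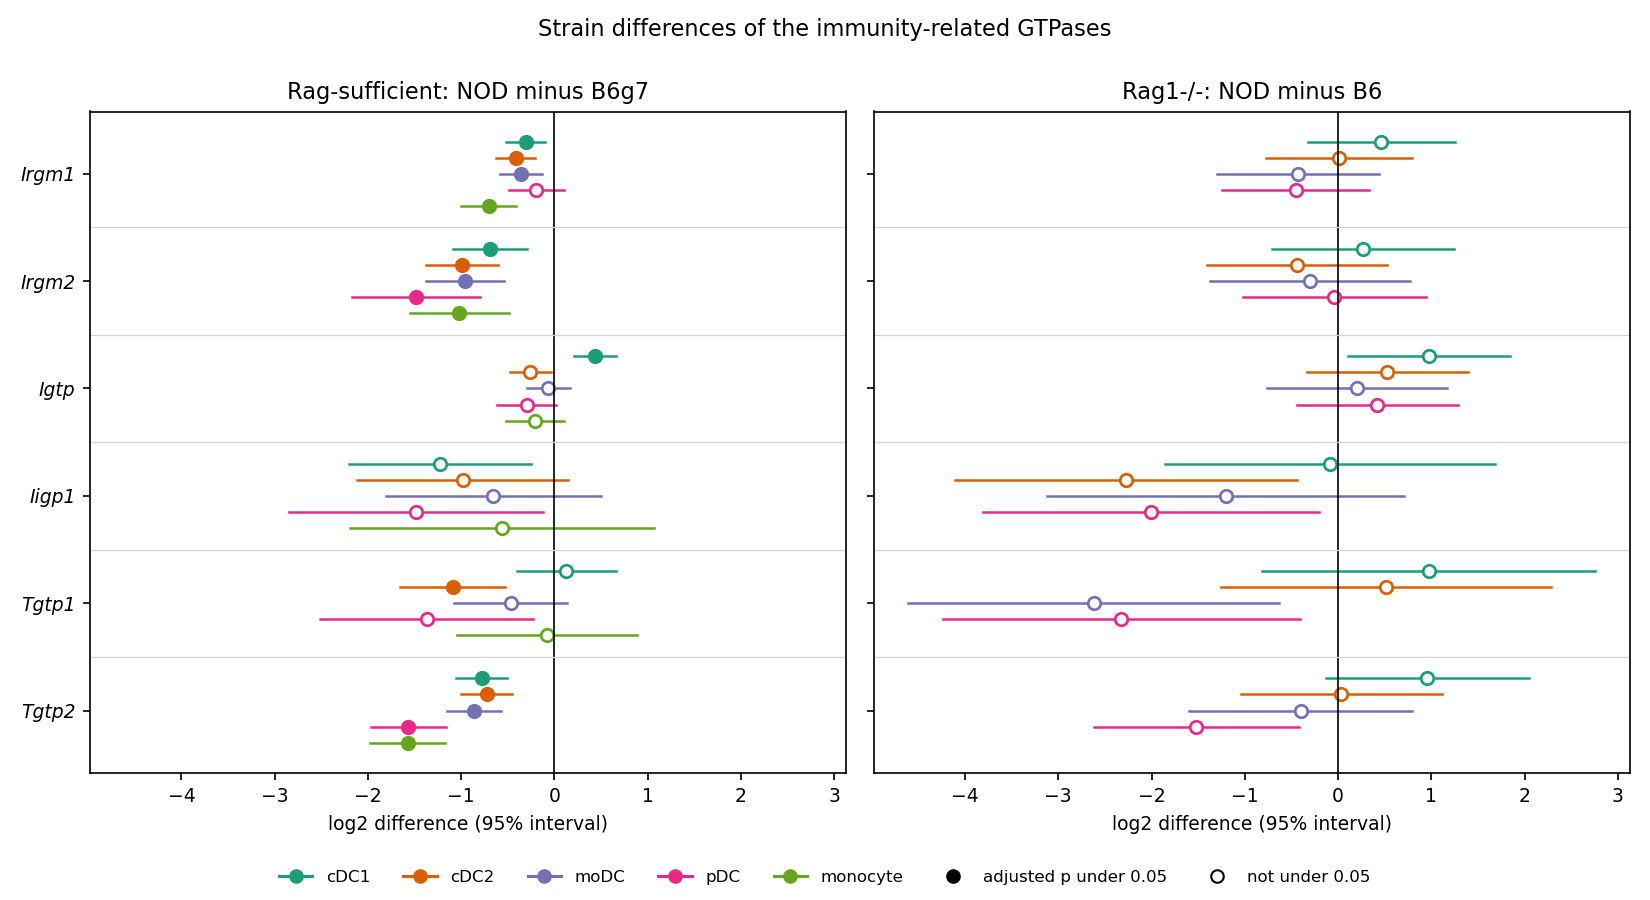
Log2 difference between NOD and B6g7 (or NOD Rag1-/- and B6 Rag1-/-) for each member and cell type; points are edgeR estimates and bars 95% intervals. Tgtp2 and Irgm2 are below 0 in all 5 cell types with Rag1, Igtp is above 0 in cDC1, and the Rag1-/- intervals are wider.

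Markers of other cell types differed between the strains in the same libraries. In pDC, 11 monocyte and macrophage markers, 10 of them with a count in each strain, summed to 8910 to 9128 CPM in B6g7 and 2201 to 2383 in NOD, with F13a1 at 0 in B6g7 and Fn1 at 0 in NOD. Most of that sum was Ly6c2, which pDC express too (8559 and 1325 CPM in the mean), and 4 of the 11 were lower in NOD and 2 higher. In monocytes, sorted on Ly6C, Ly6c2 was lower in NOD as well (281.6 against 1988 CPM, log2 -2.83, adjusted p = 0.00054 by edgeR). There 1 of these 11 markers was called lower and 0 higher. Of 11 red pulp macrophage markers, all with a count, 10 were lower in NOD pDC, with sums of 496 to 695 CPM in B6g7 and 104.7 to 150.3 in NOD. In monocytes, 10 neutrophil markers summed to 1676 to 7814 CPM in B6g7 and 246 to 388.8 in NOD, where Camp was at 0, and 5 were lower. The neutrophil list went the other way in cDC2, with 10 of 10 higher in NOD (1.966 to 11.91 CPM against 5.356 to 1929), and in moDC, with 9 of 10 higher (2.875 to 250.5 against 518.6 to 1781). NOD moDC were also higher in 9 of 10 cDC1 markers and lower in 1 (333.9 to 555.2 CPM in B6g7 and 1148 to 1595 in NOD). They were higher in 8 of 9 B cell markers (183.6 to 402.5 and 528.9 to 2809), and all markers of both lists had a count. In NOD moDC 7 of 11 monocyte and macrophage markers and 6 of 11 red pulp macrophage markers were higher as well, B cell markers were higher in cDC1 (7 of 9, with 1 lower) and cDC2 (6 of 9), and 6 of 10 cDC1 markers were higher in cDC2. In cDC1, 10 erythroid markers, all with a count, summed to 142.6 to 2358 CPM in B6g7 and 2370 to 12950 in NOD, and in cDC2 and moDC to at most 2296 against at least 2665. In pDC they summed to 35.2 to 597.5 CPM against 1777 to 3381, with 5 called higher in NOD. In monocytes the sums were 35.84 to 554.6 against 1129 to 3642 CPM, with 1 called higher. In cDC1, cDC2 and moDC 10 T cell markers, all with a count, summed to 5.166 to 93.26 CPM in B6g7 and 18.53 to 328.6 in NOD. The part of these cells in the IRG differences was not tested.

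Irgm2 also moved with the sort date. In the 6 groups that span 10.26.2015 and 01.05.2016 (cDC1, cDC2 and moDC of each strain), its libraries of the later date were all above those of the earlier one, by 1.74-fold to 4.17-fold in the mean. In moDC NOD it was at 5.607 and 7.825 CPM on the first date and 29.86, 26.78 and 27.32 on the second. Tgtp2 was lower in the mean on the later date in the 6 groups, the earlier date being 1.23-fold to 1.46-fold above it, with no overlap in cDC2 of both strains. Igtp, which shares a run of sequence with Irgm2, overlapped between the dates in all 6 groups. The date pattern was noticed in the values and was not tested.

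**Figure D4:**
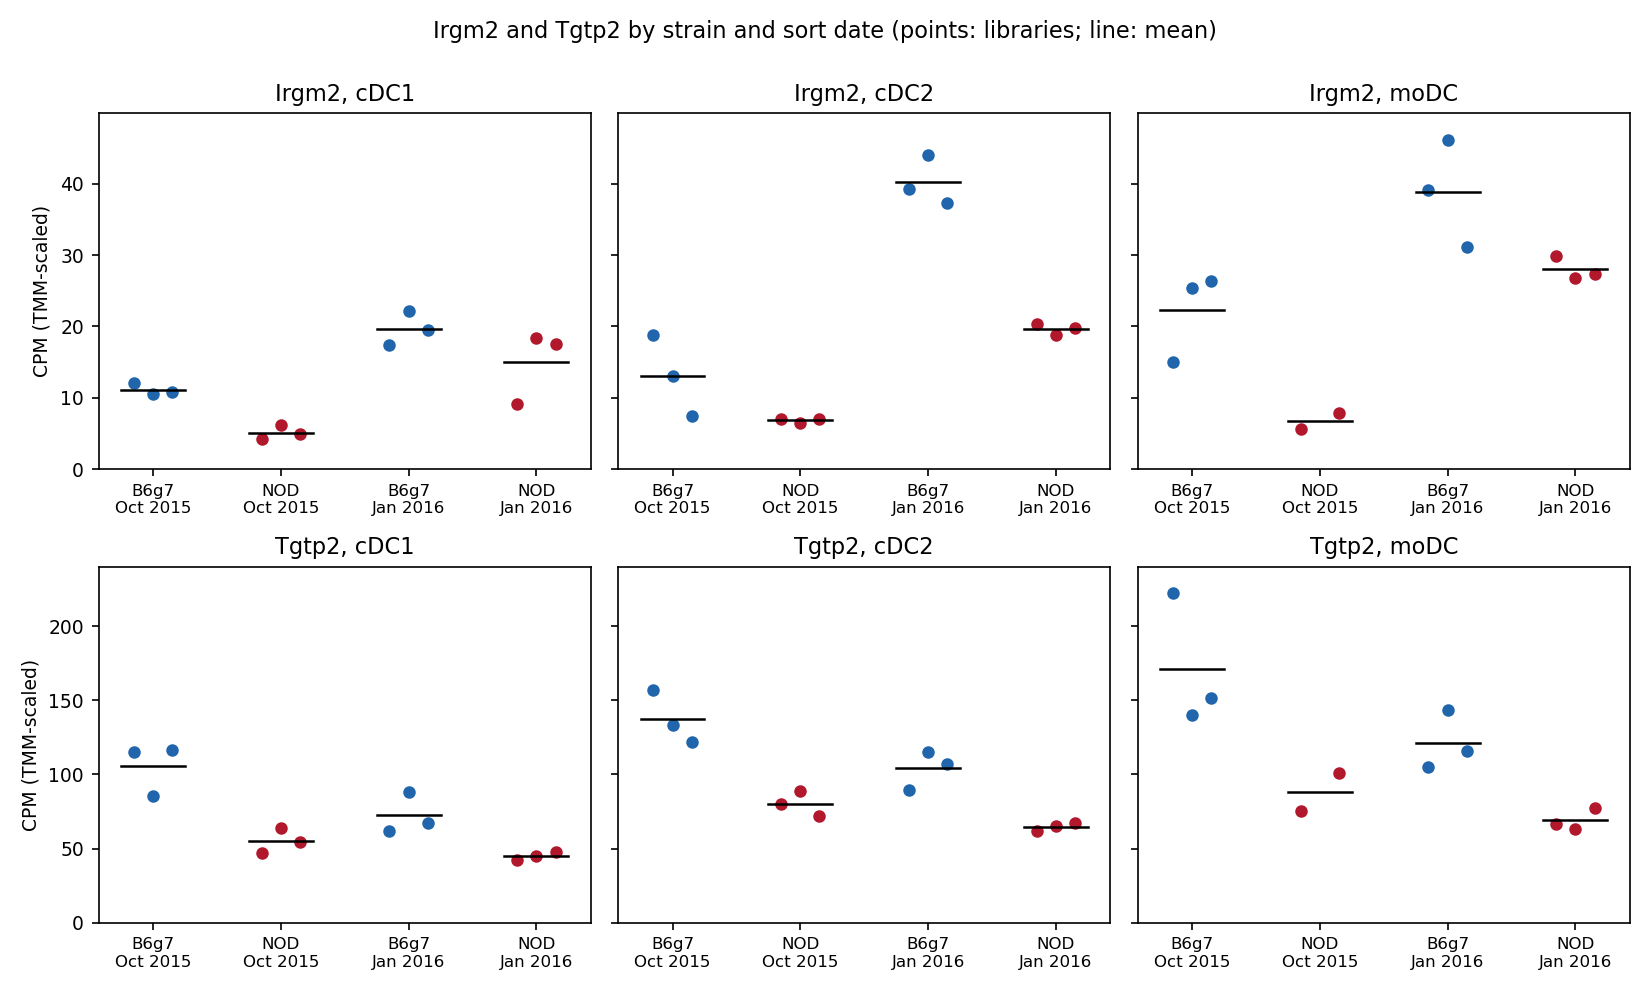
CPM of Irgm2 (upper row) and Tgtp2 (lower row) in cDC1, cDC2 and moDC with Rag1, split by strain and sort date (10.26.2015 and 01.05.2016); points are libraries and lines means. Irgm2 is higher on the later date in all 6 groups without overlap, while the mean of Tgtp2 is lower on it.

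In the Rag1-/- mice, 0 of the 6 members passed in cDC1, cDC2, moDC or pDC by edgeR's quasi-likelihood test, where 1.67%, 2.34%, 1.49% and 4.58% of all genes did. In simulated counts of Rag1-/- cDC1 the same fit recovered 7 of 100 genes changed 2-fold, so 0 calls do not show that the strains were alike. At an unadjusted p under 0.05 there were 1 (Igtp, cDC1), 1 (Iigp1, cDC2), 1 (Tgtp1, moDC) and 3 (Iigp1, Tgtp1 and Tgtp2, pDC), where 9.74%, 12.5%, 9.66% and 22.7% of all genes were under it. The authors' deposited table passes 1 member row in this set, the Iigp1 transcript NM_001146275 in cDC2 (log2 -6.18, adjusted p = 0.00127), and the other Iigp1 transcript does not pass there (0.593). limma called 0 in each cell type, and DESeq2 called 0 but for Tgtp1 (log2 -2.40, adjusted p = 0.0482) and Tgtp2 (log2 -1.55, adjusted p = 0.0445) in pDC.

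In pDC Tgtp2 was at 64.62, 60.12 and 63.83 CPM in NOD Rag1-/- and 94.78, 310.6 and 129.9 in B6 Rag1-/-, without overlap (log2 -1.52, 95% interval -2.62 to -0.42, adjusted p = 0.113 by edgeR). Iigp1 was there at 19.66, 12.46 and 16.42 CPM against 31.33, 100.9 and 60.79, again without overlap (log2 -2.0, adjusted p = 0.199). In cDC1 Igtp was at 77.3, 40.72 and 47.04 CPM in NOD Rag1-/- and 38.19, 18.99 and 26.5 in B6 Rag1-/-, every NOD Rag1-/- library higher (log2 0.98, adjusted p = 0.467). For cDC1 Tgtp2 the interval ran from -0.13 to 2.05 around 0.96, and for cDC2 Tgtp2 from -1.04 to 1.11 around 0.03, and the -0.78 and -0.73 measured with Rag1 lie outside the first interval and inside the second. The first rests in part on 1 library: Tgtp2 in cDC1 NOD Rag1-/- was at 244.9, 54.45 and 129.4 CPM, and without replicate 1 the difference was 0.325.

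The difference between the sets was called for 0 of 24 member tests, against 0.210%, 1.11%, 0.585% and 1.35% of all genes in cDC1, cDC2, moDC and pDC. At an unadjusted p under 0.05 there were 3 in cDC1 (5.49% of all genes), 2 in cDC2 (9.19%), and 1 each in pDC (17.5%) and moDC (7.77%), and the smallest p was that of Tgtp2 in cDC1 (log2 -1.78, 95% interval -2.66 to -0.90, adjusted p = 0.084). Without cDC1 NOD Rag1-/- replicate 1 it was -1.14 (adjusted p = 0.613). DESeq2 called that test (log2 -1.74, adjusted p = 0.0235), and edgeR did so without cDC1 NOD Rag1-/- replicate 2 (log2 -2.17, adjusted p = 0.00636), cDC2 NOD Rag1-/- replicate 1 (adjusted p = 0.0432) or pDC B6 Rag1-/- replicate 2 (0.0421). Irgm2 in pDC was called without pDC B6 Rag1-/- replicate 3 (log2 -1.94, adjusted p = 0.0209) or pDC NOD Rag1-/- replicate 3 (log2 -1.85, 0.0231). Within the Rag1-/- set, a strain effect that differed between cell types was called for 0 of 6 members, against 0.312% of all genes, by edgeR, with unadjusted p under 0.05 for Tgtp1 and Tgtp2 (0.0262 and 0.0398), as for 7.32% of all genes.

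Spread between libraries was wider without Rag1. The median coefficient of variation of Irgm1 over groups was 10.6% in the set with Rag1 and 37.4% in the Rag1-/- set, and that of Tgtp2 was 22.6% and 59.2%. Without the 4 libraries sorted on 11.14.2014, left out after the values were seen, the Rag1-/- medians were 13.7% for Irgm1 and 30.7% for Tgtp2, with some groups then at 2 libraries. The NOD Rag1-/- libraries sorted on 11.14.2014, replicate 1 of cDC1, cDC2 and moDC, were above both others of their group for all 6 members, 18 of 18 cases, by 1.74-fold to 5.87-fold over the mean of the other libraries. Irgm1 in cDC1 was at 194.4 CPM against 75.35 and 83.68, Tgtp1 in cDC1 at 113.5 against 5.871 and 32.79, and Tgtp2 in moDC at 536.9 against 169.5 and 262.1.

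Of all genes 31.9%, 34.7% and 29.6% were above both others in those libraries of cDC1, cDC2 and moDC. Of 9 guanylate-binding protein genes 7, 8 and 7 were, of 11 other interferon-gamma-induced genes 9, 9 and 5, and of 22 type I interferon-stimulated genes 4, 9 and 6. cDC1 markers were for 7, 6 and 5 of 10. Neutrophil markers were above both others for 5, 7 and 6 of 7, and their part in the IRG levels was not tested. The cDC1 B6 Rag1-/- library of the same date was above both others of its group for 1 of 6 members, Igtp, at 38.19 CPM against 18.99 and 26.5. Irgm1 there was at 87.56 CPM against 77.11 and 90.5, and Iigp1 at 1.887 against 10.2 and 10.31. Of the B6 Rag1-/- libraries sorted on 05.15.2015, moDC replicate 2 held Irgm1 at 373 CPM against 161 in the other moDC library, and pDC replicate 2 at 249.8 against 127.5 in replicate 1. pDC replicate 3 (157.8) and cDC2 replicate 3 (140 against 129.6 and 116.2), of the same date, were less apart. This was noticed in the values and has no test. Without the 4 libraries of 11.14.2014, 0 members passed in each Rag1-/- comparison.

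**Figure D5:**
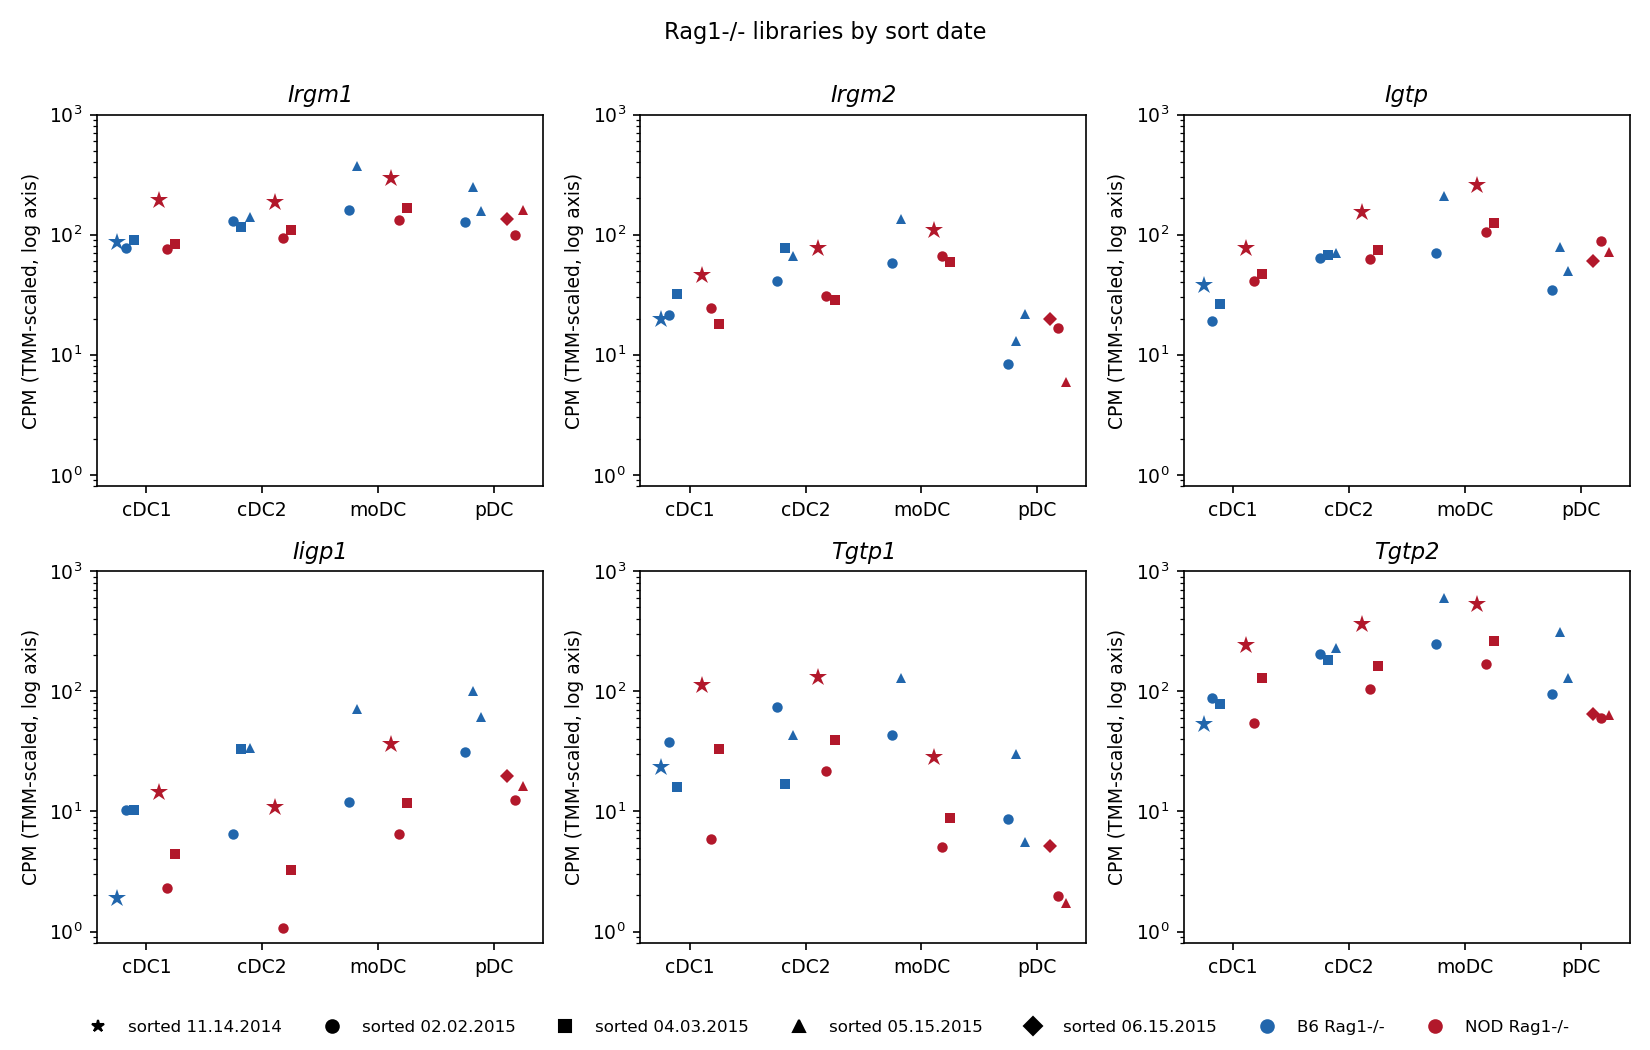
CPM (log axis) of the members in the Rag1-/- libraries, by cell type and strain, with the sort date as the marker; stars are libraries sorted on 11.14.2014. In NOD Rag1-/- cDC1, cDC2 and moDC the star is the highest of the 3 points for all 6 members.

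Across cell types of the Rag1-/- mice moDC held the highest mean of Irgm1, Irgm2, Igtp and Tgtp2 in both strains: Tgtp2 reached 425.5 CPM in B6 Rag1-/- (libraries at 247.2 and 603.8) and 322.8 ± 191.1 (n = 3) in NOD Rag1-/-. Calls over pairs of cell types numbered 9 of 36 in B6 Rag1-/-, where 24.1% of all tests over all genes were called, and 7 of 36 in NOD Rag1-/- against 21.3%. Without cDC1 replicate 1 or moDC replicate 2 the B6 Rag1-/- count was 4. With replicate number as a block the NOD Rag1-/- count was 16. The share over all genes was not counted in these other fits. In B6 Rag1-/- moDC was above cDC1 for Igtp (log2 2.35, SE 0.49, adjusted p = 0.00355) and Tgtp2 (2.55, SE 0.62, 0.0107), and pDC was above cDC1 for Iigp1 (3.13, SE 0.96, 0.0136). In NOD Rag1-/- pDC was below cDC2 for Tgtp1 (log2 -4.43, SE 1.05, adjusted p = 0.00373) and Tgtp2 (-1.74, SE 0.57, 0.027). These sorts also held markers of other cells. Red pulp macrophage markers summed to 2652 to 20640 CPM in cDC2 of B6 Rag1-/- and 1186 to 4550 in NOD Rag1-/-. In the same order, neutrophil markers in moDC summed to 30.31 to 407.9 and 654.3 to 13360. Erythroid markers in pDC summed to 1973 to 8084 and 4713 to 31830. The part of these cells in the IRG levels was not tested.

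Genes of the same pathway were counted from lists chosen with earlier results of these data known. Of 8 other IRG genes tested, 1 was higher and 1 lower in NOD in cDC1, 2 and 3 in cDC2, 0 and 1 in moDC, 1 and 2 in pDC, and 0 and 1 in monocytes. Gm12250 (Irgb10), an effector, was lower in NOD in cDC2 (8.067 against 16.41 CPM, adjusted p = 9.87e-05), moDC (13.55 against 27.49, 0.000246) and monocytes (19.66 against 39.71, 0.00637).

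Guanylate-binding proteins, interferon-gamma-induced GTPases that act with the IRGs at vacuoles, included many genes called in the other direction. Of 10 tested, 5 were higher and 1 lower in NOD in cDC1, 5 and 1 in cDC2, 5 and 0 in moDC, 0 and 2 in pDC and 2 and 0 in monocytes, with medians of 1.06, 0.49, 0.96, -0.22 and 0.74 on the log2 scale. Gbp3 in cDC1 stood at 158.8 CPM in NOD against 6.261 (log2 4.69, adjusted p = 4.1e-24), and at 7.674 against 18.89 in pDC (log2 -1.27, adjusted p = 0.000129). Type I interferon-stimulated genes were lower in NOD: 12, 19, 19, 7 and 17 of 22 in cDC1, cDC2, moDC, pDC and monocytes, and 0 higher in each, with medians from -1.26 to -0.63. Ifih1, a sensor of viral RNA, fell from 57.38 CPM in B6g7 to 15.8 in NOD monocytes (adjusted p = 3.62e-05).

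Of 9 genes of the interferon-gamma receptor and its signalling, at most 3 were called in any cell type. The receptor chain Ifngr1 was higher in NOD in cDC2 (log2 0.34, adjusted p = 9.09e-05) and monocytes (0.38, 0.00313). Of 14 other interferon-gamma-induced genes, 0 were higher and 8 lower in NOD in pDC, 0 and 5 in monocytes, 3 and 5 in moDC, 3 and 3 in cDC2, and 1 and 0 in cDC1. In pDC they included Serpina3g at 7.761 against 46.89 CPM (log2 -2.56, adjusted p = 4.47e-15), while in cDC1 Serpina3g was higher in NOD (log2 0.41, adjusted p = 0.0052). Of 12 ATG8 conjugation genes at most 4 were called in any cell type, with medians between -0.06 and 0.09.

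The members were not each other's closest match across the 18 groups. Over 10523 genes the highest Pearson correlation of mean log2 CPM was with Lgals3bp for Irgm1 (r = 0.86), Tmem39b for Irgm2 (0.95), Spata13 for Igtp (0.82), Kdr for Iigp1 (0.93), H2-Ob for Tgtp1 (0.91) and Il18bp for Tgtp2 (0.87). Next came Gm18852 and Arhgap27 for Irgm1, Reps1 and Fam126a for Irgm2, Ddx1 and Htra3 for Igtp, Ifi44 and Gbp10 for Iigp1, Serpina3g and Stk39 for Tgtp1, and C2 and Pcolce2 for Tgtp2. Among the members r ran from -0.13 (Irgm2 and Iigp1) to 0.76 (Irgm1 and Igtp). The 18 points share cell types, strains and sequencing runs.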

How the data were processed

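RNA of sorted mouse spleen cells was amplified with SMART-seq v4 and sequenced as 150-base pairs, per the labels' protocols. The deposited table holds expected counts per RefSeq transcript for 35070 transcripts in 70 libraries; RSEM and limma are named, with no version, in the submitters' processing notes, and the sources used here name no aligner or genome build. The authors' own comparisons are deposited as log2 fold changes and adjusted p-values per transcript. Counts were summed to 24435 genes and rounded to whole numbers. The 98 transcripts paired with no gene name were kept under their own identifiers and are part of that number. All columns could be matched to samples. CPM are per 1000000 counts of the TMM-scaled library total.

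Strain differences were fitted with edgeR 4.0.16 (quasi-likelihood, robust, R 4.3.3) on genes with at least 1 CPM in at least 3 libraries, with Benjamini-Hochberg adjustment over all genes and a threshold of 0.05: 13413 genes with a mean per cell type and sort date in the set with Rag1, 13137 genes with a mean per group in the Rag1-/- set, and 13837 genes over all libraries for the difference between the sets. Cell types were compared with a term for the date 01.05.2016 in the set with Rag1. Intervals are 1.96 SE either way. DESeq2 1.42.0, limma 3.58.1, other scalings, filters and date terms, summed pairs, a replicate block and leaving out each library were alternatives. Scripts were tested on simulated counts with 200 changed genes. In cDC1 with Rag1, 95 of 100 genes changed 2-fold and 99 of 100 changed 4-fold were recovered. In Rag1-/- cDC1 the numbers were 7 and 77 of 100. Low counts limit precision for Iigp1 and Tgtp1, and counts are not unique molecules. Whether reads of NOD and B6 mice match the RefSeq transcripts equally well was not tested, which bears on every strain difference given here.

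The rule for named genes was the 6 members, up to 2 genes of each list with the largest called change and at least 10 CPM, and for each member the 3 most alike genes. The members and lists were chosen with earlier results of these data known. Same-numbered libraries deviated together between strains in cDC1 (r 0.72 to 0.80) and cDC2 (0.66 to 0.80), whose numbers follow the sort date, and in Rag1-/- cDC1 (0.19 to 0.45). They did so between cell types among cDC1, cDC2 and moDC of B6g7 (0.62 to 0.87), between cDC1 and cDC2 of NOD (0.73 to 0.83), and within NOD Rag1-/- but for cDC1 and pDC. The same held for cDC2 and moDC of B6 Rag1-/- (2 pairs, 0.21 and 0.44). Elsewhere the numbers did not pair the libraries. Promoter and transcript sequences are from RefSeq (GRCm38.p6) and GRCm38 transcripts, read with Python 3.11.15, pandas 2.3.3 and numpy 2.4.6.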

Additional observations from a re-analysis of the deposited data

Results flagged for a closer look

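In 4 of 36 sets of 5 or 6 libraries 1 library stood apart, where chance alone marks about 1 in 20. Irgm1 was at 145.9 CPM in moDC B6g7 replicate 1, with the others at 92.34 to 109.0. Tgtp1 was at 45.08 CPM in the same library, with the others at 13.11 to 19.04. Igtp was at 36.62 CPM in cDC2 B6g7 replicate 2, with the others at 44.81 to 49.12. Iigp1 was at 1.88 CPM in cDC2 NOD replicate 3, with the others at 0.3354 to 0.8782.

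The strain difference itself varied between the 5 cell types for Igtp (F test in edgeR's quasi-likelihood fit, adjusted p = 0.00437), which was called in cDC1 and in 0 of the other 4, and for Tgtp2 (adjusted p = 0.00689), which was lower in NOD in all 5, with -1.57 in pDC and -1.58 in monocytes against -0.73 to -0.87 in the others on the log2 scale. With no term for sort date neither passed.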

How the results depend on the processing

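Of 495 member values under the alternatives 460 stayed on their side of the threshold, as did 408 of 420 with a library left out. Values that were not called in either fit were counted as unchanged even where their sign turned. Iigp1 in monocytes, for example, ran from -1.377 to 0.842 on the log2 scale with a library left out. With no sort date term the calls numbered 2 in cDC1, 1 in moDC and 1 in pDC, and 0 members varied between cell types. With Igtp and Irgm2 summed, an alternative added after the data were seen, they numbered 2 in cDC1 and 1 in pDC. The summed pair was at 0.154 in cDC1, where Irgm2 alone was at -0.693. On 01.05.2016 alone 1 member was called in moDC. In Rag1-/- pDC DESeq2 called 2. Calls over pairs of cell types in B6 Rag1-/- rose from 9 to 15 with DESeq2 and 14 with an additive date. DESeq2 called 1 difference between the sets. The cause of these moves was not tested. Shares over all genes were counted in the main fits only. Whether all genes moved alike under the alternatives of this section is therefore not known.

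With replicate number as a block the count over pairs of cell types was 19 in B6 Rag1-/- and 16 in NOD Rag1-/-, and Irgm1 in cDC1 was the 1 strain call lost (adjusted p = 0.0907). In B6 Rag1-/- the numbers do not pair the libraries of different cell types, but for cDC2 and moDC (2 pairs, r 0.21 and 0.44). In NOD Rag1-/- replicates 1 and 3 of pDC were sorted on other dates than the same numbers of cDC1, cDC2 and moDC.

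Leaving out 1 library gave 3 to 5 calls in cDC1, 4 to 4 in cDC2, 2 to 3 in moDC, pDC, monocytes and the test across cell types, 44 to 46 over cell types in B6g7, 42 to 45 in NOD, 4 to 10 in B6 Rag1-/-, 6 to 9 in NOD Rag1-/-, 0 to 1 between the sets and 0 in every Rag1-/- strain comparison. With library totals in place of TMM the median of all genes shifted by 0.124 in moDC, 0.113 in Rag1-/- cDC2 and 0.427 in Rag1-/- pDC, and the Irgm1 calls in cDC1 (adjusted p = 0.0562) and moDC (0.101) were lost. The Tgtp2 call held in all 5 cell types under every alternative but the Tgtp sum in cDC1. Leaving out the cDC2 B6g7 libraries with low RNA integrity moved 0 of 30 member values across the threshold.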
